A study of Mus musculus with 8 samples.

Results

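Accessible chromatin was examined at the 39 mouse Hox genes, in the 4 clusters Hoxa, Hoxb, Hoxc and Hoxd, of cold-exposed brown adipose tissue (BAT). Members were all genes with a curated RefSeq mRNA whose symbol is Hoxa, Hoxb, Hoxc or Hoxd followed by a number, 39 of 21000 genes with such an mRNA on chromosomes 1 to 19, X and Y. The measurement was ATAC-seq, in which a transposase cuts and tags DNA where chromatin is accessible. Nuclei were taken from the BAT of 4 mice, 2 WT and 2 Dot1L-BKO. All mice were 12 weeks old, ate a chow diet and spent 4 hr at 4°C. The Dot1L-BKO mice carried floxed Dot1l alleles and Ucp1-Cre, which deletes Dot1l, the H3K79 methyltransferase gene, in Ucp1-expressing cells. Their WT controls were littermates with the floxed alleles. Endothelial, immune, nerve and progenitor cells of the tissue do not express Ucp1, so they keep Dot1l in both groups. The deposited values are 1 list of 32173 peak summits made from all 4 libraries, without a value per library. A summit is the position of highest signal in a peak, and its score is the −log10 of the peak's q-value. The genotypes could not be compared, there is no replicate error, read depth is unknown, and a gene without a summit may still have had accessible chromatin below the calling threshold. The list is named for WT against Dot1L-BKO libraries, and whether the latter were the control of the peak calling is not known here. If they were, a summit would mark an excess in WT. A missing summit would then mean only that WT had no excess there, at however accessible a site. This holds for every summit and every absence of a summit reported here.

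Hox genes encode homeodomain transcription factors that give cells their position along the head-to-tail axis. Each cluster is a row of genes transcribed in the same direction, with paralog group 1 at the 3′ end and group 13 at the 5′ end. Genes at the 3′ end are switched on earlier and act in anterior parts of the embryo, and genes at the 5′ end act in posterior parts, an order called collinearity. Polycomb complexes keep clusters silent where they are not used, trithorax complexes containing MLL proteins keep them active, and CTCF and cohesin set boundaries within them. Adult fat depots keep Hox expression that differs with their place in the body, and the interscapular BAT depot arises in the anterior trunk. Dot1l and its H3K79 methylation are known for sustaining HOXA genes in leukemias with MLL fusions.

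The sequences printed first lie beside the highest-scoring summits of the clusters, at the only summit of Hoxd and at a weak summit in a coding exon. All are from GRCm38 (mm10), on the strand of the gene, 5′ to 3′. Inside the clusters 3 summits had scores of 10 or more, and the strongest of them were at the Hoxa5 promoter and at an internal exon of Hoxa3. The first of these lines is chr6:52204492-52204521 and the next is chr6:52172719-52172748, both on the minus strand, with CACGTG, the letters of an E-box, in capitals. They are 30-base stretches that lie beside the summits at 52204523 and 52172705 and do not contain them. Both were cut around CACGTG, which therefore starts at base 13 in each, and this pattern was picked after the sequences had been seen. They are short because both summits lie in 5′ untranslated exons.
Hoxa5 promoter: ggacaacaaaagCACGTGattcgaagtcgt
Hoxa3 internal exon: gcggcggagtgtCACGTGaccgcgggggcg
The summit at Hoxd8, the only summit of the Hoxd cluster, is shown as chr2:74704725-74704820 on the plus strand, with the letters AGGGGGC of a CTCF core, read here on the opposite strand, in capitals.
Hoxd8 promoter: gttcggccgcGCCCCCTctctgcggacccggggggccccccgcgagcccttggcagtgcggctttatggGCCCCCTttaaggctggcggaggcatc
A summit in a coding exon of Hoxa4 (chr6:52190474-52190574, minus strand) lay on the homeobox, and the capitals mark the codons of the DNA recognition helix.
Hoxa4 homeobox: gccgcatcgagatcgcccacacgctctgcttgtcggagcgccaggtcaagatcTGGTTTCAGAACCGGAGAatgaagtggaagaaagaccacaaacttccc

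A summit within 1 kb of a transcription start site (TSS), called a promoter summit here, was present at 6 of 39 Hox genes. Among them were Hoxa3, Hoxa4, Hoxa5, Hoxa6 and Hoxd8. The share was 15.4% (95% Wilson interval 7.25 to 29.7%), against 45.2% of all genes with a RefSeq mRNA. Wilson intervals cover counting error only. Summits with a score of at least 10 were at 2 Hox genes, with the higher at Hoxa5, against 23.5% of all genes. Hox promoters are GC-rich, with a median of 57.1% GC in 1 kb around the TSS against 55.6% over all genes. Among all genes of the same GC deciles as the Hox genes, a mean share of 54.7% had a promoter summit. The share of Hox genes with a promoter summit was thus below that of all genes and below that of genes of like base composition. Its interval reached neither, but it may be too narrow if neighboring genes are not independent.

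The genes with a promoter summit were counted by cluster. In Hoxa, 5 of 11 genes had a promoter summit (45.5%, 21.3 to 72.0%), against 45.2% of all genes and a mean of 56.7% in their GC deciles. None of the 10 Hoxb genes had one, with an upper Wilson limit of 27.8%. None of the 9 Hoxc genes had one, with an upper limit of 29.9%. In Hoxd only Hoxd8 of 9 genes had one (11.1%, 1.99 to 43.5%). The intervals are wide and the Hoxa and Hoxd intervals overlap those of the other clusters. Genes in the GC deciles of Hoxb had a mean share of 48.2%, those of Hoxc 55.3% and those of Hoxd 58.8%.

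Along the axis of the clusters, promoter summits were at anterior and central paralog groups. Groups 1 to 4 had summits at 3 of 12 genes (25%, 8.89 to 53.2%), against a mean of 49.7% in their GC deciles. Groups 5 to 8 had them at 3 of 11 (27.3%, 9.75 to 56.6%), against 48.8%. Groups 9 to 13 had none at 16 genes, with an upper limit of 19.4%, although a mean of 62.4% of all genes in their GC deciles had one. The interval of groups 9 to 13 overlaps both others. Of the 6 genes with a summit, 5 lie in a single cluster, so paralog group and cluster cannot be told apart well.

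**Figure D1:**
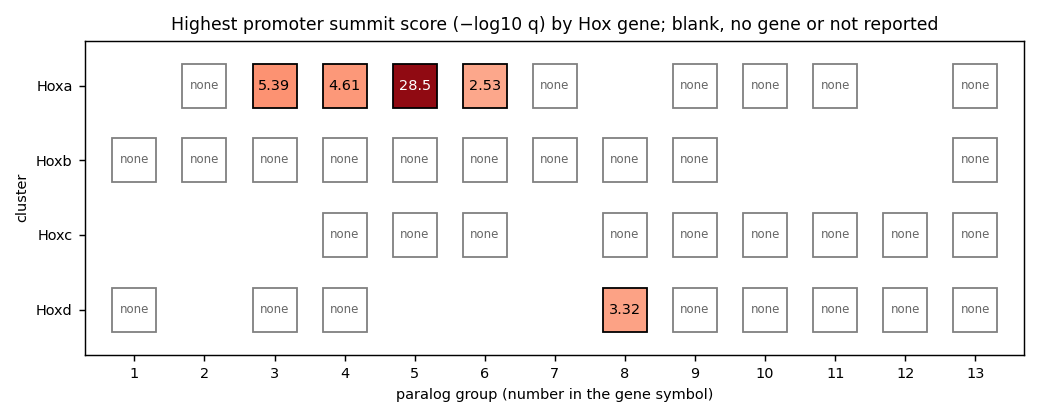
Highest promoter summit score (−log10 q) by Hox gene, with clusters as rows and paralog groups 1 to 13 as columns; "none" marks a gene without a promoter summit and a blank marks a gene that does not exist or is not reported here. Scores run from 2.53 at Hoxa6 to 28.5 at Hoxa5, the filled squares are in the Hoxa row except that of Hoxd8, and no square is filled from group 9 on.

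Hoxa5, a gene that acts in the cervical and thoracic skeleton and in the lung, had the strongest Hox summit. It lay at position 52204523 of chromosome 6, 64 bp downstream of the TSS in the 5′ untranslated exon, with a score of 28.5, and ranked 1756 of 32173 summits. The other members with promoter summits had lower scores. Hoxa3, a gene needed for the thymus and parathyroid, had a summit 287 bp downstream of its TSS, in an intron, with a score of 5.39. Hoxa4 had one 536 bp upstream of its TSS with a score of 4.61. Hoxd8 had one 155 bp downstream of the more upstream of its 2 TSSs with a score of 3.32. Hoxa6 had one 927 bp upstream, near the edge of the window, with a score of 2.53. The last 4 ranked from 14921 to 26345 among all summits.

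The median score over the 6 genes was 5.0, against 10.7 over all genes with a promoter summit (quartiles 5.55 and 20.9). Of all such genes, 52.1% had a score of at least 10. Only Hoxa5 of the 6 was above the upper quartile. Over the whole list the median summit score was 5.0, with quartiles of 3.05 and 9.39 and a lowest score of 1.31.

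The remaining 33 Hox genes had no promoter summit. In Hoxa these were Hoxa2, Hoxa7, Hoxa9, Hoxa10, Hoxa11 and Hoxa13. Hoxa2, which patterns the neural crest of the second pharyngeal arch, was 3900 bp from the nearest summit. The run without promoter summits at the 5′ end began with Hoxa7, 3010 bp from the nearest summit, and ended with Hoxa13, a gene of the digits and genital tubercle, 39297 bp away. Hoxa9 was 5787 bp away. Hoxa10 and Hoxa11, which act in the uterus and limb, were 13356 and 24227 bp away. All 5 shared the same nearest summit, with a score of 3.32.

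In Hoxb, distances ran from 1735 bp at Hoxb3 to 117611 bp at Hoxb13, which lies apart from the rest of its cluster. Hoxb4 was 2934 bp from the nearest summit and Hoxb5 was 8415 bp. Hoxb1, a gene of the hindbrain segment that forms the facial nerve, was 23724 bp away, and Hoxb2 was 9598 bp away. Toward the 5′ end the distance grew from 12853 bp at Hoxb6 through 25281 bp at Hoxb7 and 30022 bp at Hoxb8 to 40597 bp at Hoxb9.

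In Hoxc the run without promoter summits was the whole cluster. It went from Hoxc4, 53101 bp from the nearest summit, to Hoxc13, a gene of hair and nails, 166365 bp away, and included Hoxc5, Hoxc6, Hoxc8, Hoxc9, Hoxc10, Hoxc11 and Hoxc12. Hoxc8 is known as a repressor of the brown fat program in white fat progenitors, and it was 96957 bp from a summit. All 9 genes had the same nearest summit, outside the cluster on the 3′ side, with a score of 11.3.

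In Hoxd there was a run without promoter summits on each side of Hoxd8. On the 5′ side it ran from Hoxd9, 7007 bp away, through Hoxd10, Hoxd11 and Hoxd12 to Hoxd13, the digit gene, 36545 bp away. On the 3′ side it ran from Hoxd3, 7223 bp away, through Hoxd4 at 17208 bp to Hoxd1 at 58210 bp.

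Summits were also counted between the first and last gene of each cluster and in 50 kb on each side. The 4 windows held 21 summits, all of them between the genes and none in any of the flanks. Of these 21, 7 lay within 1 kb of a Hox TSS (33.3%), near the 32.2% of all summits that lay within 1 kb of an mRNA TSS. By annotation 6 were in exons, 8 in introns and 7 between genes.

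**Figure D2:**
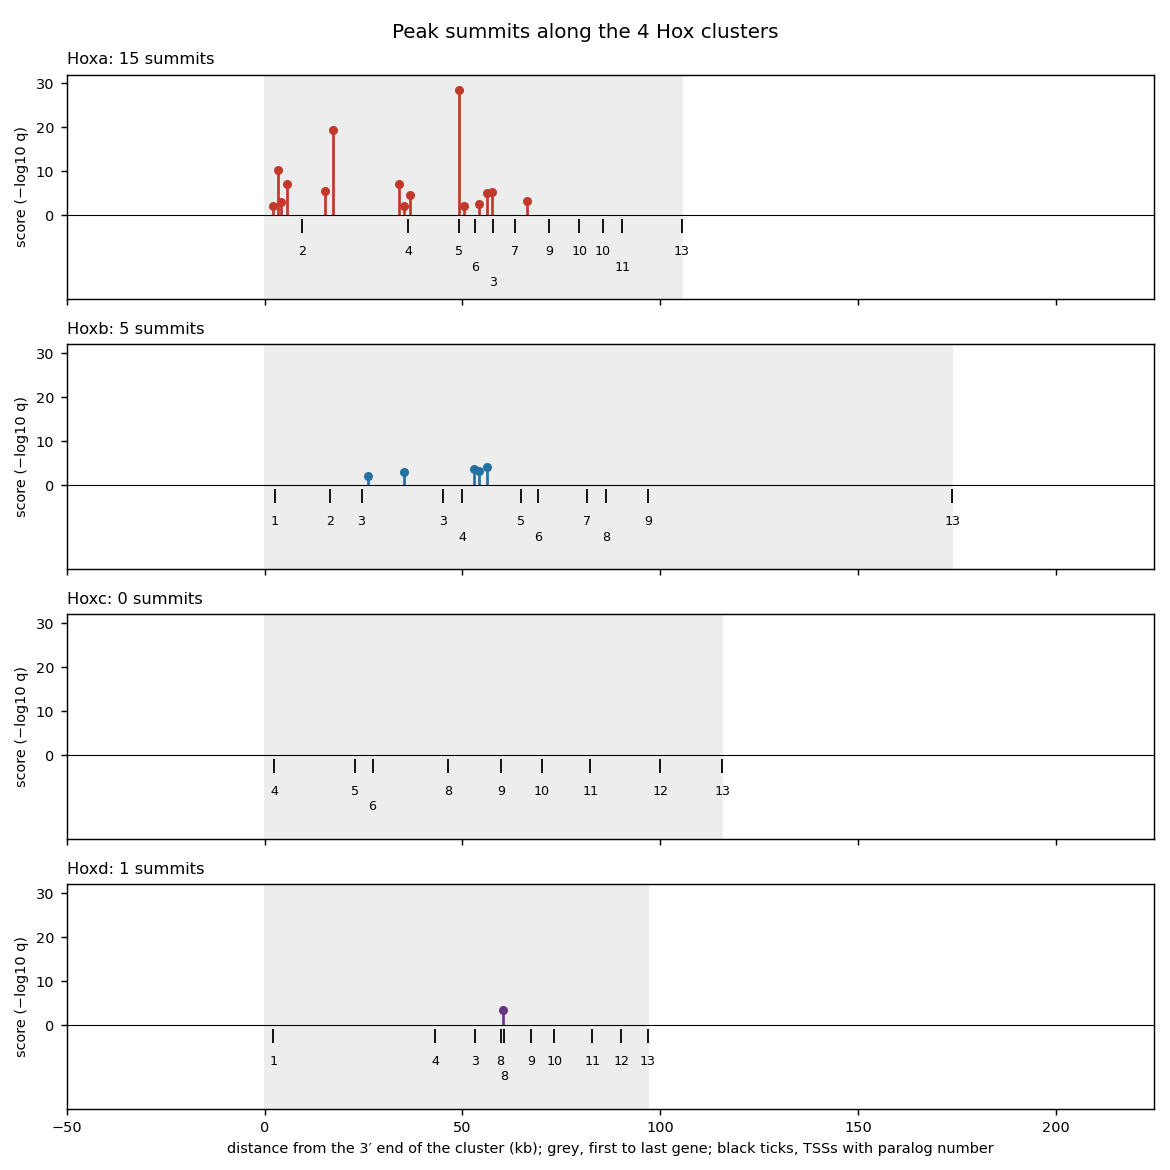
Summits along the 4 clusters, each drawn from its 3′ end (distance 0 kb) toward its 5′ end with flanks on both sides; stems give the score (−log10 q), grey spans run from the first to the last gene, and black ticks are TSSs of the genes reported with their paralog number. The 15 Hoxa summits lie between 2.203 and 66.2 kb, the 5 Hoxb summits between 26.2 and 56.3 kb, Hoxc has 0, and Hoxd has 1 at 60.4 kb.

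The Hoxa cluster (105.5 kb of chromosome 6) held 15 summits, or 14.2 per 100 kb. That was 12.0 times the mean of 1.18 per 100 kb over the genome, a mean not matched for gene density. Chromosome 6 as a whole had 0.997. The summits were spread over 64.0 kb with a median spacing of 1.83 kb, and the one nearest the 5′ end lay between Hoxa7 and Hoxa9. The last 39.3 kb, which hold Hoxa9, Hoxa10, Hoxa11 and Hoxa13, had no summit. Scores ran from 2.09 to 28.5 with a median of 5.07.

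The Hoxa5 summit was followed by a summit with a score of 19.4 and rank 3135 in an internal 5′ untranslated exon of Hoxa3. It lay 40362 bp downstream of the curated Hoxa3 TSS, so it was no promoter summit of a Hox gene, and it was 176 bp upstream of the start of the antisense noncoding gene Gm15050. Downstream of Hoxa4, in an intron of the long Hoxa3 transcript, another had a score of 7.05. Summits with scores of 2.09 in the 3′ untranslated exon of Hoxa6 and 5.07 in a Hoxa3 intron lay between Hoxa5 and the Hoxa3 TSS. The summit nearest the 5′ end, with a score of 3.32, was 3010 bp upstream of Hoxa7.

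Gene density bears on such counts. Over the genome, 63.4% of 27247 tiles of 100 kb had no summit and 2.51% had 10 or more. The windows of Hoxa, Hoxb, Hoxc and Hoxd, flanks included, have 12, 11, 9 and 11 mRNA TSSs in 205.5, 273.9, 215.7 and 196.9 kb. In the 1260 tiles with at least 5 mRNA TSSs the median was 4 summits, 24.6% had 10 or more and 16.4% had none. In the 276 tiles with at least 8 mRNA TSSs the median was 9 summits, 46.7% had 10 or more and 5.43% had none. The windows differ from tiles in length, and over a whole window Hoxa had 7.30 summits per 100 kb, Hoxb 1.83, Hoxc 0 and Hoxd 0.508. All TSSs of the windows but that of Evx2 lie inside the clusters, so the flanks lower the density of TSSs and of summits. Inside the clusters the densities were 14.2, 2.87, 0 and 1.03 per 100 kb. The 12 TSSs of Hoxa lie in 105.5 kb, so the tiles with at least 8 mRNA TSSs are the nearest to it in gene density. The clusters had little repeat sequence, with 13.4 to 24.6% of bases masked against 36.4% of the genome, and a GC content of 48.9 to 50.01% against 41.7%.

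The Hoxb cluster (chr11:96194316-96368254, 173.9 kb) held 5 summits, or 2.87 per 100 kb, against 2.18 for chromosome 11. All 5 were weak, with scores from 2.15 to 4.16. Of these, 3 lay between Hoxb5 and Hoxb4, 6340, 4225 and 2934 bp upstream of the Hoxb4 TSS, with scores of 4.16, 3.32 and 3.75. The last of these was 1832 bp upstream of the hairpin of Mir10a, a miRNA of the cluster. The other summits, with scores of 2.92 and 2.15, were in introns of Hoxb3, the latter 1735 bp upstream of a Hoxb3 TSS. No summit lay between Hoxb5 and Hoxb13. The strongest Hoxb summit, chr11:96311877-96311977 on the plus strand, is shown here because it had the highest score in a cluster without promoter summits. It holds no CpG and had 48.5% GC.
Hoxb4 upstream: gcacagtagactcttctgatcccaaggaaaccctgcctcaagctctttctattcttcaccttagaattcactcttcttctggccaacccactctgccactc

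The Hoxc cluster (chr15:102921131-103036856, 115.7 kb) had no summit, and a count of 0 allows up to 2.59 per 100 kb, against 1.55 for chromosome 15. The Hoxd cluster (chr2:74668225-74765142, 96.9 kb) held the summit of Hoxd8 alone, or 1.03 per 100 kb, against 1.36 for chromosome 2. The mean of chromosome 15 lies under the limit for Hoxc, so that fewer summits than on the chromosome as a whole were not detectable there.

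Stretches without a summit reached past the cluster ends. The longest at Hoxa was 207.7 kb, from upstream of Hoxa7 past Hoxa13. At Hoxb it was 424.1 kb and held Hoxb2 and Hoxb1. At Hoxc it was 365.3 kb and held all 9 genes, ending on the 5′ side at a summit with a score of 33.3 at the TSS of Calcoco1. At Hoxd it was 880.2 kb and held Hoxd3, Hoxd4 and Hoxd1. The median gap between neighboring summits of the whole list was 10.3 kb, and gaps of these lengths or longer were 9.59%, 4.65%, 5.58% and 1.64% of all gaps. Long gaps are thus found in other places too, but these shares are over all gaps and are not matched for gene density. Of the 100-kb tiles with at least 8 mRNA TSSs, 5.43% had no summit.

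Beyond the cluster ends, the nearest summits of Hoxa were 85.0 kb away on the 3′ side and 168.4 kb on the 5′ side. For Hoxb the distances were 397.8 kb on the 3′ side and 118.5 kb on the 5′ side, the latter at the TSS of Atp5g1, a gene for ATP synthase subunit c. For Hoxc they were 50.6 and 199.0 kb, and for Hoxd 819.8 and 89.3 kb, the last at the TSS of Lnpk. Within 500 kb, the 3′ and 5′ sides of Hoxa had 4 and 3 summits, those of Hoxb 14 and 30, those of Hoxc 12 and 15, and those of Hoxd 0 and 1. Hoxa was the cluster with more summits inside than in 500 kb on both sides together.

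**Figure D3:**
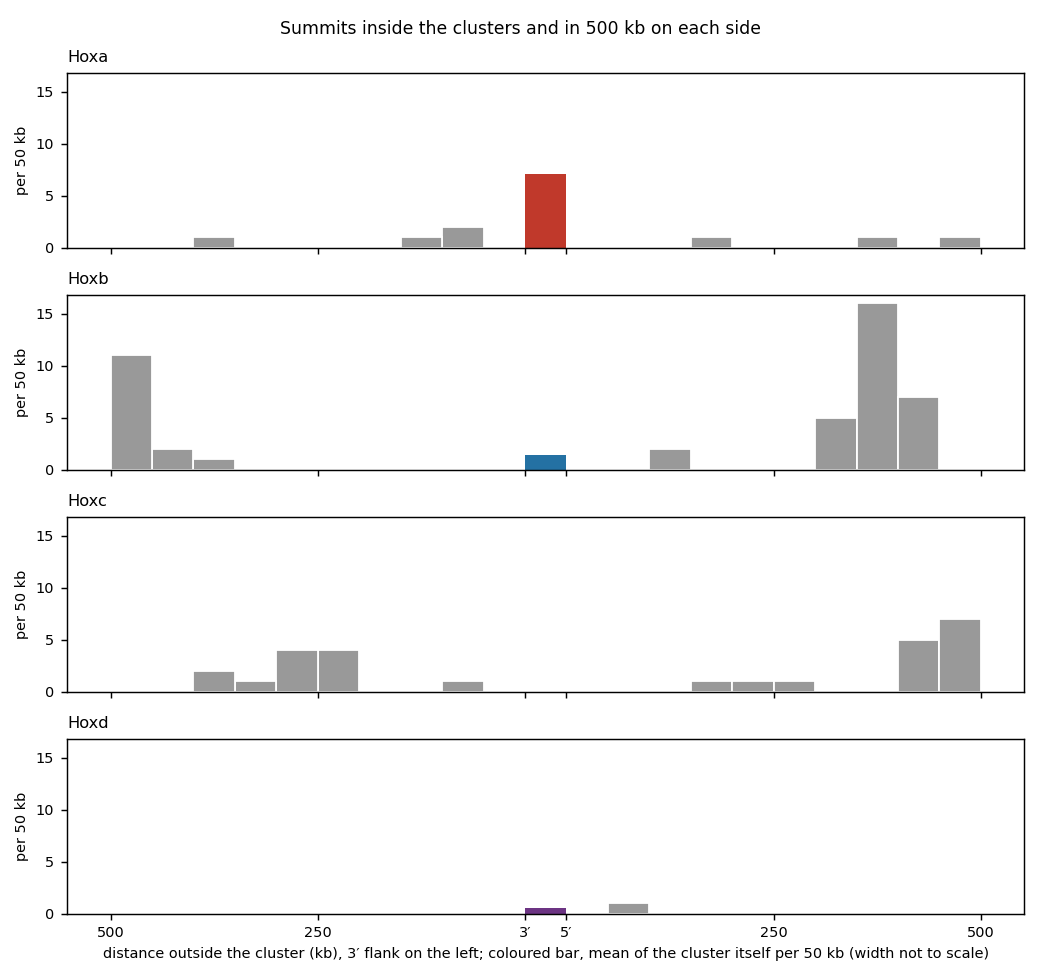
Summits per 50 kb in 500 kb on each side of the clusters (grey bars, 3′ side on the left) and the mean per 50 kb inside each cluster (colored bar, width not to scale). Hoxa stands alone in a region with 4 and 3 summits on its sides, Hoxb and Hoxc have most of their neighboring summits over 100 kb away, and the Hoxd region has 0 and 1.

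The codons of the recognition helix were found in all 39 Hox genes, and a summit lay within 50 bp of them in 2, among them Hoxa4 at 12 bp with a score of 2.15. The count was also 2 within 500 bp. No like share was computed for coding positions of other genes, so the count is a description. How reads that match several paralogs were placed is not given in the sources used here. These positions were looked up after the summit sequences had been seen.

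Promoter base composition of the 6 Hox genes with a summit overlapped that of the 33 without. GC content was 54.5 to 74.1% (median 60.5%) with a summit and 45.1 to 73.8% (median 57.0%) without. The CpG observed to expected ratio was 0.614 to 0.996 (median 0.788) with a summit and 0.256 to 0.956 (median 0.662) without. Hoxd4, without a summit, had the lowest of both values. Hoxa13 shows the opposite case, with 73.8% GC, a ratio of 0.931 and no summit within 39297 bp. The 150 bases upstream of the TSSs of Hoxa5 (chr6:52204588-52204737) and Hoxa13 (chr6:52260881-52261030), both on the minus strand, are printed to compare the promoter with the strongest summit and one without a summit. GGGCGGG, the letters of an SP/KLF site, is in capitals. The Hoxa5 stretch had 71.3% GC and 21 CpGs, and the Hoxa13 stretch had 82.7% GC and 25.
Hoxa5 upstream: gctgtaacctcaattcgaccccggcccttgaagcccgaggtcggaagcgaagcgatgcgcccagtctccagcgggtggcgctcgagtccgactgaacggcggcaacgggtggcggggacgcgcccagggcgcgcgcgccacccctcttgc
Hoxa13 upstream: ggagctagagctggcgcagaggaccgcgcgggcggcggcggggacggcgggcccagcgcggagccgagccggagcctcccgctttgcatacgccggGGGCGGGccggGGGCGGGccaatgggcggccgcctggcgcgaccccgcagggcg

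**Figure D4:**
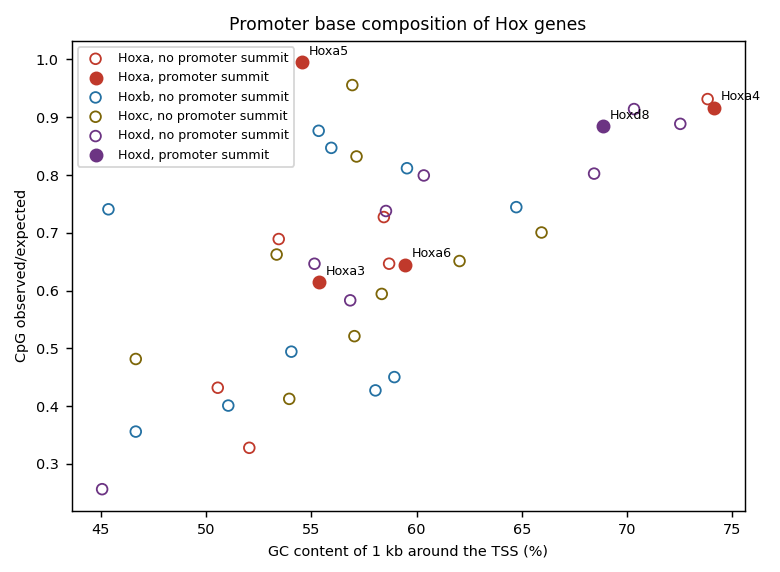
GC content (%) of 1 kb around the TSS against the CpG observed to expected ratio for the Hox genes reported, colored by cluster; filled points have a promoter summit and open points do not. Filled points span 54.5 to 74.1% GC and overlap the open points, while Hoxa5 has the highest CpG ratio (0.996) and Hoxa4 the highest GC content.

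Short sequence patterns were counted on both strands in 201 bp around the 21 cluster summits. The CTCF core AGGGGGC was in 3 (14.3%), against 5.50% of all summits and 8.85% of summits within 1 kb of a TSS. GGGCGGG, which can share letters with the CTCF core, was in 1 (4.76%), against 12.2% and 27.6%. TGATTNAT, the letters of a joint HOX and PBX site, was in none, as against 0.957% of all summits, and the NRF1 pattern GCGCANGCG was in none, as against 3.03%. CACGTG, which was counted only after the sequences had been seen, was in the 101 bp around 2 of the 21 summits (9.52%), both of them among the 3 with a score of at least 10. It was in 2.45% of all summits, 3.34% of those within 1 kb of a TSS and 3.32% of those with a score of at least 10. Counts of 0 to 3 are too small to set these shares apart from the list.

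RefSeq promoters of 300 bases were in the reference table for 22 of the 39 Hox genes, 24 promoters in all. GGGCGGG was in 8 of these 24 (33.3%) and in 25.6% of all 32851 promoters in the table. It was in 7 of the 20 promoters of genes without a promoter summit and in 1 of the 4 of genes with one. AGGGGGC was in 2 (8.33%), against 10.6% of all, and TGATTNAT in 2 (8.33%), against 3.22%. GCGCANGCG was in none, against 6.25% of all.

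The windows also hold noncoding transcripts, many of which run antisense to the Hox genes. Of 20 curated long noncoding RNA genes, 4 had 1 or more summits near a TSS, again within 1 kb (20%, 8.07 to 41.6%), against 23.1% of all 3322 such genes. These were Hotairm1, Hotairm2, Gm15050 and Gm38462. Hotairm1 is an RNA known from myeloid cells. Gm38462 shared the summit of Hoxd8, 831 bp from one of its starts, so these partners cannot be told apart.

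The other curated long noncoding genes had none. In Hoxa these were Hottip, the RNA from beyond Hoxa13 that binds WDR5, and Hoxa11os, Hoxaas2, Hoxaas3, Mira, 5730596B20Rik and LOC115490409. In Hoxb they were Gm11538, Gm53, Hoxb3os and Hoxb5os. In Hoxc they were Hotair, the Polycomb-associated RNA between Hoxc11 and Hoxc12, and Gm36878, and in Hoxd they were Haglr, Hoxd3os1 and Gm14424. None of 7 predicted long noncoding genes had one (Gm52902, LOC115490410, Gm30134, Gm51876, Gm29905, Gm30528 and Gm31790), nor did the predicted small nuclear RNA Gm22975. The same held for 6 miRNA hairpins, Mir196b, Mir10a, Mir196a-1, Mir196a-2, Mir615 and Mir10b, and for Evx2, the only other gene with an mRNA in the windows.

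Genes that act with or on Hox genes were counted in the same way. Of 9 genes for Hox cofactors, the TALE homeodomain proteins that bind DNA with Hox proteins, 5 had a promoter summit (55.6%, 26.7 to 81.1%), near the mean of 60.0% over all genes in their GC deciles. Scores were 55.0 at Pknox1 and 18.1 at Pbx3. Pbx2 and Meis1 had scores of 7.05 and 5.0, and Meis2, Meis3, Pbx4 and Pknox2 had none. Of 25 Polycomb genes 18 had one (72.0%, 52.4 to 85.7%, against 67.7% in their GC deciles), with the highest scores at Jarid2 (25.4), Cbx8 (18.8) and Eed (14.6). Of 19 genes for MLL complexes, UTX, CTCF and cohesin, 17 had one (89.5%, 68.6 to 97.1%, against 65.5% in their GC deciles), led by Kmt2b (65.8), Stag1 (37.6) and Smc3 (30.5), and Rbbp5 and Stag2 had none. The shares of cofactor and Polycomb genes were thus near those of genes of like base composition.

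Other developmental regulator families were nearer to the Hox genes. None of 8 ParaHox and Evx genes had a promoter summit (upper limit 32.4%, against 56.1% in their GC deciles), namely Cdx1, Cdx2, Cdx4, Gsx1, Gsx2, Pdx1, Evx1 and Evx2. Of 56 genes of other homeobox families 7 had one (12.5%, 6.19 to 23.6%), among them Irx3 (8.65) and Six5 (5.87). A mean of 64.1% of all genes in their GC deciles had one. Of 85 Fox, Sox, Tbx and Pax genes 22 had one (25.9%, 17.8 to 36.1%, against 59.7% in their GC deciles), led by Tbx3 (37.6), Foxa3 (12.8) and Sox12 (12.8). The Hox share of 15.4% lay between those of the homeobox and Fox, Sox, Tbx and Pax families, and the 3 intervals overlapped.

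**Figure D5:**
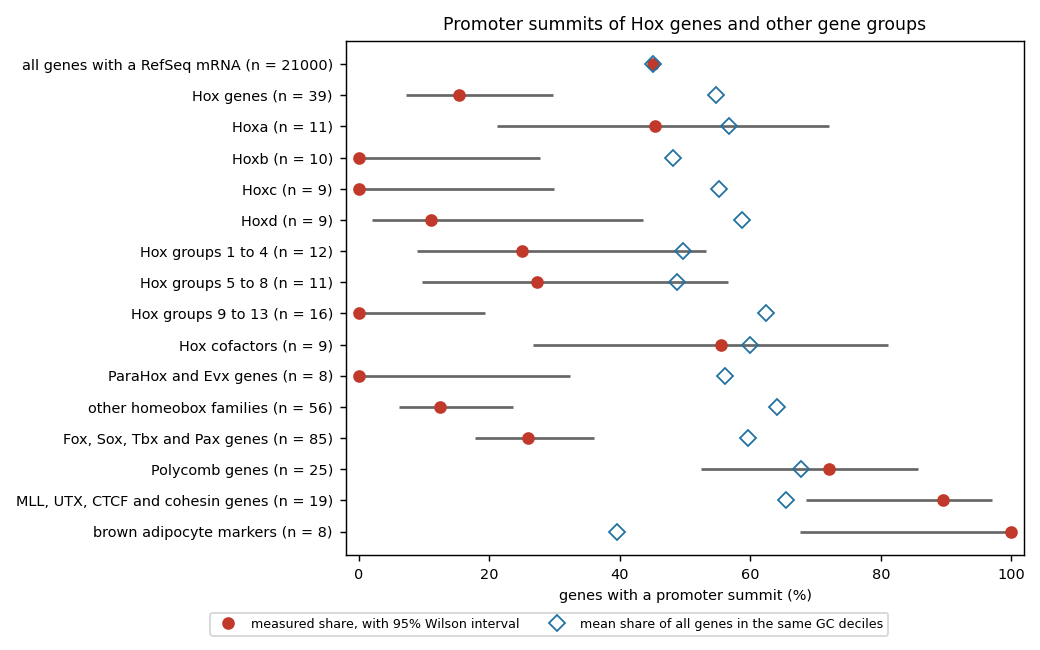
Percent of genes with a promoter summit in the Hox genes, their clusters and paralog groups, and other gene lists; red points give the measured share with its 95% Wilson interval, and blue diamonds the mean share of all genes in the same GC deciles. The Hox share of 15.4% lies below its diamond at 54.7%, the 72.0% of Polycomb genes lies near theirs at 67.7%, and MLL, UTX, CTCF and cohesin genes at 89.5% lie above theirs at 65.5%.

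Marker genes of cell types were counted in the same way. If the Dot1L-BKO libraries were the control of the peak calling, summits at markers would mark an excess in WT. The counts could then not check the tissue label, and the paper reports smaller peaks at the Ucp1 promoter in Dot1L-BKO. All 8 brown adipocyte markers had promoter summits, with scores from 6.02 to 61.5, among them Cidea (61.5), Ucp1 (33.7) and Ppargc1a (20.8). Of 4 endothelial markers only Cdh5 had one (2.59), with none at Kdr, Pecam1 and Tie1. Of 4 macrophage and leukocyte markers only Cd68 had one (2.15), with none at Adgre1, Csf1r and Ptprc. Of 4 progenitor and mural markers only Pdgfra had one (4.16), with none at Dpp4, Pdgfrb and Rgs5. No summit was at the muscle markers Acta1, Ckm, Myod1 and Myog or at any of 4 neuron and glia markers, among them Gfap, Rbfox3 and Snap25. The mean share of all genes in the same GC deciles was 39.5% for the brown adipocyte list, 45.4% for endothelial, 16.3% for macrophage and leukocyte, 42.7% for progenitor and mural, 63.6% for muscle and 38.4% for neuron and glia markers. The Wilson intervals of the 4-gene lists reach these shares except for muscle, whose upper limit is 49.0%. The scores at Cdh5, Cd68 and Pdgfra were within the range of the Hoxb summits, from 2.15 to 4.16. Which cells of the tissue gave the Hox summits was not tested.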

How the data were processed

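Nuclei from BAT of 2 WT and 2 Dot1L-BKO mice were processed separately for ATAC-seq. In Partek Flow, the authors used BWA for alignment (build mm10) and MACS2 (2.1.1) for peaks, keeping q-values to 0.05 and enrichment from 2.0-fold. Their processing notes also name CASAVA, bcl2fastq (2.2) and cutadapt (1.2.1). The deposited list gives the −log10 q-value at each summit. It names WT against Dot1L-BKO libraries, and which served as control is not known here, so a score may reflect all libraries or an excess in WT. Read shifting and handling of duplicates and mitochondrial reads are not given in the sources used here. RNA-seq was not analysed here.

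Summits were matched to curated RefSeq mRNA TSSs of GRCm38 within 1 kb, using Python 3.11.15, pandas 2.3.3 and scipy 1.17.1. On simulated data, 200 of 200 planted promoter summits were recovered over 21000 genes. GC content covered 1 kb around a TSS, and genes were split into 10 GC bins. Alternatives were scores of at least 5 or 10, windows of 500 bp and 5 kb, 1 kb upstream to 100 bp downstream, merging within 500 bp, all transcripts, nearest genes, and flanks of 20, 100 and 500 kb. Members were named, with nearest summits for runs of genes without promoter summits. Other lists name their 3 highest promoter scores and any genes without a summit where 5 or fewer. Pbx2, Meis1 and genes of lists with more than 5 members without a summit were named after their values were seen. Members and lists were chosen with earlier results of these data known. Some genes and a sequence are not reported here. No test was made.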

Additional observations from a re-analysis of the deposited data

How the results depend on the processing

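Of 108 values recomputed under other settings, 81 stayed within 1.5 times the value reported and 27 did not. With scores of at least 5, promoter summits were at 3 Hox genes, namely 3 in Hoxa, 0 in Hoxd and 1 in groups 5 to 8, with a median score of 10.4. With scores of at least 10 they were at 2 Hox genes, namely 2 in Hoxa, 0 in Hoxd, 1 in groups 1 to 4 and 1 in groups 5 to 8, with a median of 19.4, and at 4944 of all genes. A 500-bp window left 3 Hoxa genes. A 5-kb window gave 10 Hox genes, with 2 in Hoxb (Hoxb3 and Hoxb4) and 6 in groups 1 to 4. Groups 9 to 13 and Hoxc stayed at 0 under each promoter setting tried. Summits in the Hoxa window were 8 with scores of at least 5 and 3 with scores of at least 10, and those in the Hoxb and Hoxd windows were 0 at both. Flanks of 100 kb gave 1 at Hoxc and 2 at Hoxd, and flanks of 500 kb gave 49 at Hoxb, 27 at Hoxc and 2 at Hoxd. Under every promoter setting the Hox share stayed below that of all genes, at 5.13 to 25.6% against 23.5 to 50.03%. Leaving out a replicate could not be run, as the list has no values per library. No paired analysis was possible because libraries were not kept apart in these values. Depth is unknown, so that weak summits at the calling threshold could not be weighed by coverage.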
